A study of Homo sapiens with 6 samples.

Results

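The 41 genes described here are the nuclear receptors and the nuclear receptor coregulators measured in A549 cells after knockdown of DDX17. They were chosen by symbol among the protein-coding genes of the count table. The symbols cover the receptors with systematic NR names, apart from NR1I2 and NR1I3, and the retinoic acid receptors RARA, RARB and RARG. They also cover the retinoid X receptors RXRA and RXRB, the thyroid hormone receptors, the PPARs, ESRRA, VDR and the retinoid-related orphan receptors such as RORA. The coregulators include NCOA1 to NCOA7, NCOR1 and NRIP1. Of 29476 genes in the table, 46 carried such a symbol, and the 41 with at least 60 reads over the 6 libraries were kept, of which 31 are receptors and 10 are coregulators. Each of the 41 also passed the expression filter and was among the 15615 genes tested. The reads of a gene, summed over the libraries, ran from 82 to 27916 with a median of 3802.

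A549 is an established human cell line from a lung adenocarcinoma. The siCtrl group is 3 libraries of polyadenylated RNA from A549 cells given a nontargeting siRNA, and the siDDX17 group is 3 libraries from A549 cells given an siRNA against DDX17. Both siRNAs were delivered with Lipofectamine 2000 to cells grown in medium with fetal bovine serum, and the labels name no added hormone or ligand in either group. The labels enter the genotype of the control cells as a control plasmid, whereas the titles and the methods speak of siRNA. A harvest at 48 h is stated for RT-qPCR, and no separate time was found for RNA-seq. The methods call the 3 libraries of a group biological replicates. With 1 siRNA per group, the loss of DDX17 and any other action of that siRNA cannot be told apart.

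Nuclear receptors are transcription factors that bind short DNA elements through zinc fingers, and many of them change activity when a steroid, a thyroid hormone, a retinoid, a sterol or a fatty acid occupies their ligand pocket. Receptors without ligand often hold corepressors such as NCOR1, which carries histone deacetylases, and a bound ligand exchanges these for coactivators such as the p160 proteins NCOA1, NCOA2 and NCOA3. DDX17 and its paralog DDX5 are RNA helicases that act as coactivators of the oestrogen receptor, together with p160 proteins and the RNA of the SRA1 gene. In lung epithelium the glucocorticoid receptor, the retinoic acid receptors and PPARG are among the best studied receptors.

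The libraries held between 30658136 and 39182371 counted reads. Levels are given below as CPM, the usual counts per unit of sequencing depth, here with the TMM-scaled library size, and as the deposited FPKM where genes are compared with each other, since FPKM also divide by length. DDX17 had 177, 184 and 206 CPM in siCtrl and 32.1, 30.8 and 30.4 CPM in siDDX17, a decrease of 83.5% (log2 fold change -2.60, SE 0.0685, adjusted p = 5.89e-11). siCtrl 1 stood apart from the other libraries. The common biological coefficient of variation was 0.0754 with it and 0.0471 without it, so values without it are given where a call changed or a called value moved by over 1.5 times. Marker sums alone are given as CPM of the library size without TMM scaling. The TMM factors were 0.9336 to 0.985 in siCtrl and 1.03 to 1.056 in siDDX17, so TMM scaling would lower siDDX17 relative to siCtrl. The epithelial markers KRT8, KRT18, KRT19, EPCAM and CDH1 summed to 5450 to 5800 CPM in siCtrl. In siDDX17 they summed to 5100 to 5420 CPM, and nearly all of either sum was KRT8 and KRT18. EPCAM went the other way at low counts, with 25, 31 and 31 reads in siCtrl and 88, 81 and 85 reads in siDDX17. Markers of alveolar type II cells summed to 20.7 to 23.0 and 26.5 to 28.0 CPM, and SFTPC, which defines these cells, had at most 6 reads in a library. Leukocyte markers summed to 21.7 to 28.3 CPM in siCtrl and 31.0 to 31.7 CPM in siDDX17, nearly all of it CD14. With TMM scaling CD14 overlapped between the groups, at 20.7, 24.6 and 28.3 CPM in siCtrl and 28.2, 28.6 and 28.8 CPM in siDDX17. PTPRC had at most 2 reads. Endothelial markers stayed at or below 0.407 CPM and fibroblast markers at or below 3.78 CPM in every library. The part of these differences in the results below was not tested.

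The receptor and coregulator genes changed in many small steps. At an adjusted p under 0.05 (quasi-likelihood test of edgeR, Benjamini-Hochberg adjustment over the 15615 genes), 25 of the 41 (61%) differed between the groups, beside 48.8% of all genes tested and 52.3% of the protein-coding ones. Of these, 16 (39%) were higher in siDDX17, beside 24.5% of all genes and 25.7% of the protein-coding ones. The other 9 (22%) were lower, beside 24.3% and 26.6%. With the added requirement of an absolute log2 fold change over 1, 1 of the 41 was upregulated, beside 4.65% of all genes, and 0 of the 41 were downregulated, beside 2.92%. The lowest of the 41 values was -0.74, so no member reached this limit downwards at any p, and DESeq2 and limma also gave 0. At the limits stated in the methods, an unadjusted p under 0.01 and a fold change of 1.5, 6 were upregulated (background 11%) and 2 downregulated (background 8.03%).

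The median log2 fold change was 0.17 over the 31 receptors, -0.02 over the 10 coregulators, and 0.0051 over all genes tested. Of the receptors, 14 (45.2%) were higher and 5 (16.1%) lower. Of the coregulators, 2 (20%) were higher and 4 (40%) lower, beside 24.5% and 24.3% of all genes. For 29 of the 41 genes (70.7%) the 3 libraries of one group lay wholly above those of the other. The share was 56.5% of all genes and 59.7% of the protein-coding ones. Direction depends partly on the scaling. When counts were scaled by library size only, the median over all genes moved from 0.0051 to 0.13, and the split of the 41 moved from 16 higher and 9 lower (64.0% higher) to 19 higher and 5 lower (79.2% higher). Among all genes the same step moved the share from 50.1% to 67.7%. In these bulk samples a lower level in each cell and a smaller number of cells with the transcript cannot be told apart.

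**Figure D1:**
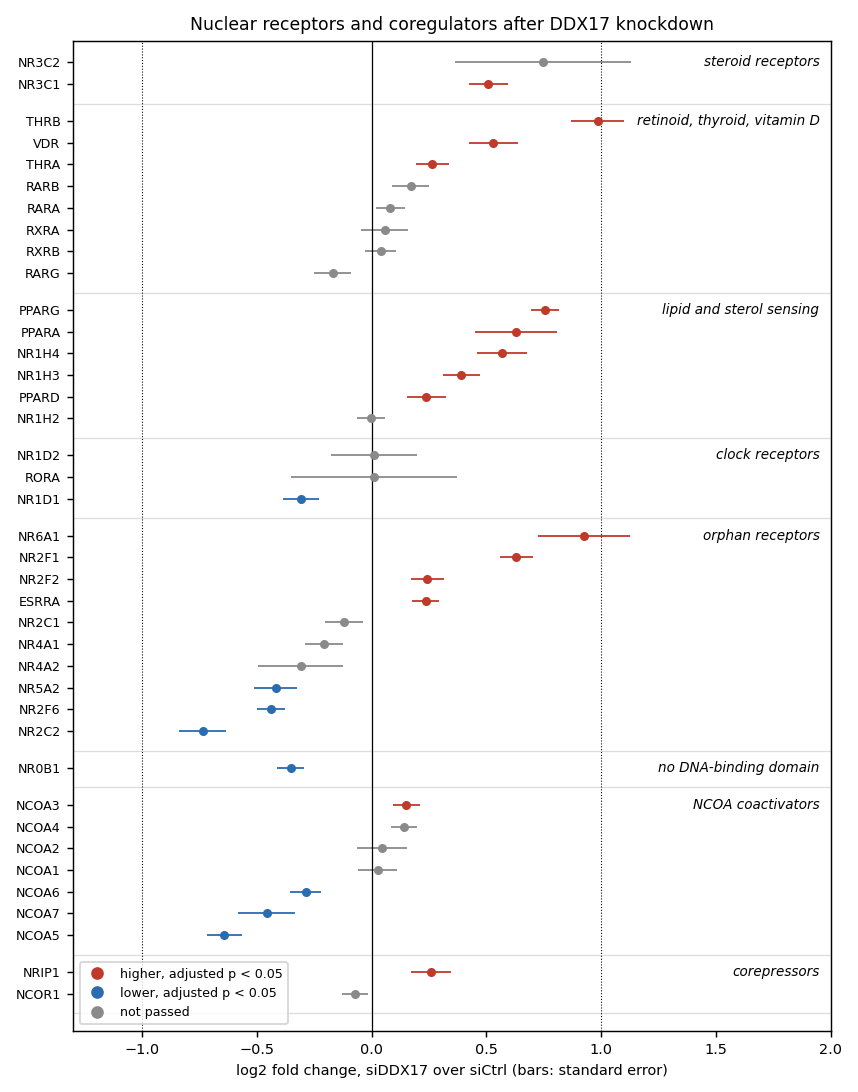
Log2 fold change of siDDX17 over siCtrl for the members reported here by name (x axis), grouped by role, with points for the estimate and bars for the standard error. Red points passed an adjusted p under 0.05 as higher, blue points as lower and grey points did not pass, and dotted lines mark log2 fold changes of -1 and 1. No point drawn lies past a dotted line, with THRB at 0.98 the nearest. Of the 6 lipid and sterol sensing receptors 5 (83.3%) are red, beside 24.5% of all genes tested.

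Since each group rests on 1 siRNA, short matches to the siRNAs within the members are shown first. Small RNAs pair with 3' UTRs through bases 2 to 8, and the 7mers that match these bases were searched on the transcript strand of the 3' UTR, at least 30 bases long, of each canonical transcript (GRCh38, GENCODE 44). For the siRNA against DDX17, 10 of the 41 members (24.4%) and 1882 of 12986 tested genes (14.5%) held TATTGCT, which pairs with its antisense strand. ATGGGTG, which pairs with the sense strand, was found in 8 members (19.5%) and in 1367 genes (10.5%). For the control siRNA, TGTCACG was present in 1 member, NCOR1, and in 3.07% of the genes, and TCGGAGA in no member and in 2.13% of the genes. A longer 3' UTR has more sequence to match, and lengths were not compared between the members and all genes. The sites in members that passed the test are printed with the 7mer in capitals, so that they can be read beside the changes below.
NR2C2, chr3:15047187-15047211, plus strand: taaactgatATGGGTGttccaaggt
NCOA5, chr20:46061326-46061350, minus strand: gttctcgagATGGGTGgctgttcgc
NR6A1, chr9:124518075-124518099, minus strand: agttgtgttATGGGTGgaggctagt
THRA, chr17:40091063-40091087, plus strand: cagggatggATGGGTGgacacagat
THRB, chr3:24118409-24118433, minus strand: gttaagtgaTATTGCTagatggtga
VDR, chr12:47842958-47842982, minus strand: attaattatTATTGCTgttgttatt
NR2F2, chr15:96337918-96337942, plus strand: tttgaaaaaTATTGCTaaaagtgca
NR2F2, chr15:96340043-96340067, plus strand: acggcacagTATTGCTgacctttag
The 3 members of this list with TATTGCT were higher in siDDX17, as were NR6A1 and THRA with ATGGGTG, whereas NR2C2 and NCOA5 with ATGGGTG were lower. The other 7 members with TATTGCT and the other 4 with ATGGGTG did not pass the test. Among all genes, 24.4% of those with TATTGCT were higher and 28.3% lower, beside 26.1% and 26.3% of those without it. For ATGGGTG, 26.8% were higher and 27.9% lower, beside 25.7% and 26.5% without it. For TGTCACG, 33.3% were higher and 24.3% lower, beside 25.6% and 26.7% without it. Genes with TCGGAGA, the 7mer that none of the 41 members holds, were higher in 48% and lower in 12.3%. Those without TCGGAGA were higher in 25.4% and lower in 26.9%. A match is a description of the sequence, and whether any of these sites was used was not tested.

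Among the steroid receptors, the glucocorticoid receptor NR3C1 was higher and the mineralocorticoid receptor NR3C2 was barely detected. NR3C1 (ENSG00000113580.14, chr5:143277931-143435512, minus strand), which carries the response to cortisol and dexamethasone, had 50.4, 41.5 and 38.5 CPM in siCtrl and 60.9, 60.8 and 63.6 CPM in siDDX17. The groups did not overlap, although siCtrl 1 lay nearest to the knockdown libraries. The log2 fold change was 0.51 (SE 0.0845, adjusted p = 2.52e-04), an increase of 42.2%. NR3C2 had 8, 13 and 7 reads in siCtrl and 14, 19 and 21 in siDDX17, and its log2 fold change of 0.75 (SE 0.383) did not pass (adjusted p = 0.125). Without siCtrl 2 it was 1.16 with an adjusted p of 0.0439, so its call turned on a library with 13 reads.

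Of the 8 receptors for thyroid hormone, vitamin D and retinoids, THRA, THRB and VDR rose and the other 5 did not pass. The 3 that rose are 37.5% of the 8, beside 24.5% of all genes. THRB (ENSG00000151090.17, chr3:24117153-24495756, minus strand), a thyroid hormone receptor, had 3.51, 3.25 and 3.68 CPM in siCtrl and 6.90, 7.27 and 6.57 CPM in siDDX17. Each knockdown library lay far above each control library, and the log2 fold change was 0.98 (SE 0.115, adjusted p = 1.20e-05), just under the limit of 1. Its paralog THRA had 28.0, 31.6 and 32.9 CPM in siCtrl and 36.5, 38.3 and 36.3 CPM in siDDX17 (log2 fold change 0.26, SE 0.0713, adjusted p = 0.0076). VDR, the receptor for the active form of vitamin D, had 5.17, 5.66 and 5.84 CPM in siCtrl and 7.498, 8.72 and 7.87 CPM in siDDX17. Again the groups did not overlap (log2 fold change 0.53, SE 0.107, adjusted p = 0.00109).

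RARA, RARB and RARG, which respond to retinoic acid, had log2 fold changes of 0.08, 0.17 and -0.17 with adjusted p of 0.32, 0.0991 and 0.101. RXRA and RXRB, the shared dimer partners of these and of many other receptors, had 0.06 (SE 0.103) and 0.04 (SE 0.0673), and their groups overlapped. Without siCtrl 1, RARB was at 0.21 (adjusted p = 0.0241) and RARG at -0.20 (adjusted p = 0.0378), so both passed when that library was left out. RARB also passed with library size only (0.29, adjusted p = 0.0162).

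Of the 6 receptors that sense lipids and sterols, 5 (83.3%) were higher in siDDX17 and none was lower, beside 24.5% and 24.3% of all genes. PPARG (ENSG00000132170.19, chr3:12287368-12434356, plus strand), the receptor that drives fat cell differentiation and lipid storage genes, had 30.03, 28.1 and 28.6 CPM in siCtrl and 48.7, 47.0 and 50.7 CPM in siDDX17. These levels were tight within each group and far apart between them, with a log2 fold change of 0.75 (SE 0.062) and, at 5.01e-07, the lowest adjusted p of the 41 genes. PPARA, a regulator of fatty acid oxidation, had 3.25, 1.99 and 2.27 CPM in siCtrl and 3.43, 4.03 and 4.21 CPM in siDDX17. siCtrl 1 nearly reached the lowest knockdown library, and the log2 fold change was 0.63 (SE 0.178, adjusted p = 0.00999). PPARD had the smallest passing change of this group, with 8.80, 8.81 and 9.23 CPM in siCtrl and 10.9, 10.3 and 10.5 CPM in siDDX17 (log2 fold change 0.24, SE 0.0848, adjusted p = 0.0327). Its call was lost without siCtrl 1, without siCtrl 2 and without each of the siDDX17 libraries, where the adjusted p lay between 0.0551 and 0.107. The PPARD call was also lost in DESeq2 (adjusted p = 0.0846), without the low-count filter (0.0865) and with the replicate number as a block (0.05).

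NR1H4, the bile acid receptor FXR, had 5.85, 6.61 and 5.36 CPM in siCtrl and 9.29, 8.86 and 8.15 CPM in siDDX17 (log2 fold change 0.57, SE 0.108, adjusted p = 7.47e-04). The oxysterol receptor LXR alpha, NR1H3, had 12.7, 14.3 and 15.1 CPM in siCtrl and 17.8, 18.8 and 18.7 CPM in siDDX17 (log2 fold change 0.39, SE 0.0825, adjusted p = 0.00152). In both genes the knockdown libraries lay above every control library. LXR beta, NR1H2, stayed level at 86.8, 90.8 and 91.1 CPM in siCtrl and 85.5, 96.6 and 86.0 CPM in siDDX17. Its log2 fold change of -0.0042 (SE 0.0616) changed sign with upper quartile or library size scaling, with a minimum of 10 counts, in limma on FPKM and when any of 3 libraries was left out, without passing in any of these fits.

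**Figure D2:**
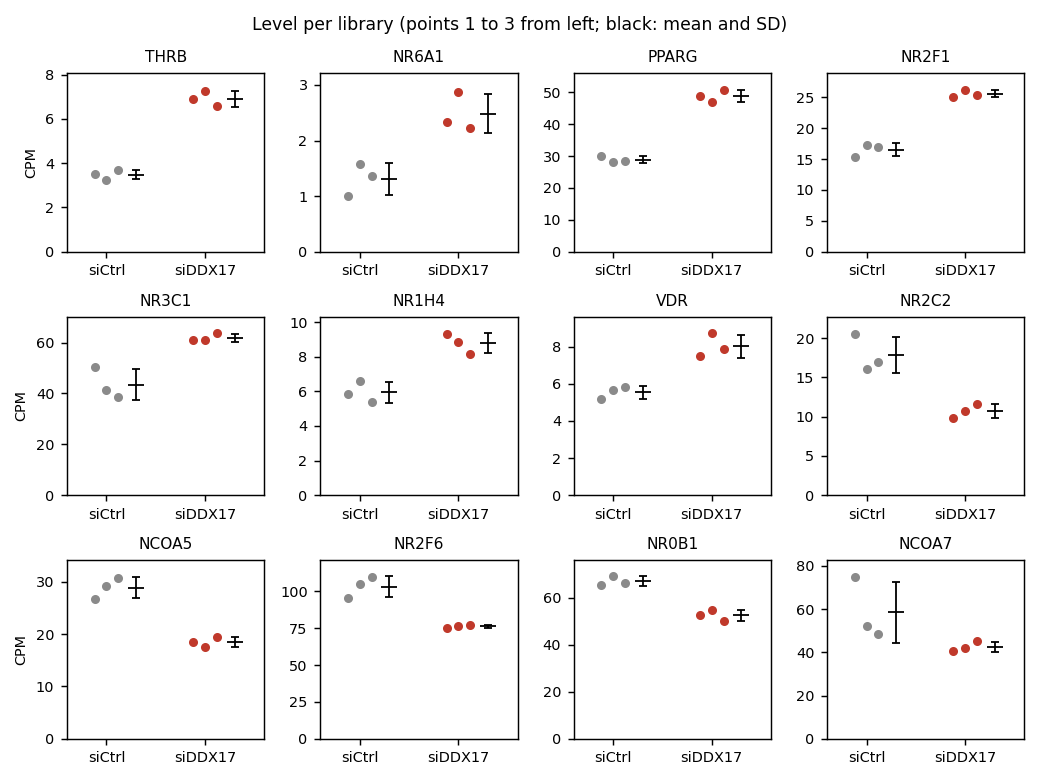
CPM of 12 members in each library (y axis, from 0), with grey points for siCtrl 1 to 3, red points for siDDX17 1 to 3, and a black bar for the mean and the SD of 3 libraries. THRB, NR6A1, PPARG, NR2F1, NR3C1, NR1H4 and VDR are higher in every siDDX17 library than in any siCtrl library, and NR2C2, NCOA5, NR2F6, NR0B1 and NCOA7 are lower, with siCtrl 1 of NCOA7 at 74.7 CPM well above the other controls.

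Among the receptors of the circadian clock, RORA activates clock genes through elements at which the REV-ERB proteins NR1D1 and NR1D2 repress. NR1D1 had 21.5, 19.1 and 19.0 CPM in siCtrl and 16.2, 16.7 and 15.2 CPM in siDDX17, without overlap (log2 fold change -0.31, SE 0.0793, adjusted p = 0.00578). With library size only this call was lost (-0.19, adjusted p = 0.0914), as it was in limma on FPKM (adjusted p = 0.103 and 0.0974). NR1D2 ranged from 4.99 to 10.2 CPM in siCtrl, wider than the 7.40 to 7.74 CPM of siDDX17. Its log2 fold change was 0.01 (SE 0.186), moved to 0.30 (adjusted p = 0.0465) without siCtrl 1 and to -0.23 without siCtrl 3. RORA, at 0.04 FPKM the lowest of the 41 in siCtrl, had a log2 fold change of 0.01 (SE 0.361).

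The 10 orphan receptors have no established physiological ligand or were named before one was proposed. Of these, 4 (40%) rose and 3 (30%) fell, beside 24.5% and 24.3% of all genes. NR6A1 (ENSG00000148200.16, chr9:124517275-124771311, minus strand), the germ cell nuclear factor, had 1.004, 1.57 and 1.36 CPM in siCtrl and 2.34, 2.88 and 2.23 CPM in siDDX17 (log2 fold change 0.92, SE 0.199, adjusted p = 0.00172). The 3 COUP-TF genes, developmental regulators that bind DNA as dimers and mostly repress, did not move as one. NR2F1 (ENSG00000175745.11, chr5:93583222-93594611, plus strand) had 15.3, 17.3 and 16.9 CPM in siCtrl and 25.1, 26.2 and 25.4 CPM in siDDX17 (log2 fold change 0.63, SE 0.074, adjusted p = 1.28e-05). NR2F2 had 27.3, 25.9 and 26.4 CPM in siCtrl and 29.2, 31.3 and 33.7 CPM in siDDX17 (log2 fold change 0.24, SE 0.0708, adjusted p = 0.0118). Its call was lost without siCtrl 2 (adjusted p = 0.0536) and without siDDX17 3 (adjusted p = 0.0824). NR2F6 (ENSG00000160113.5, chr19:17231883-17245919, minus strand), also called EAR2, went the other way, from 95.5, 104.7 and 109.4 CPM in siCtrl to 75.1, 76.5 and 76.9 CPM in siDDX17 (log2 fold change -0.44, SE 0.0608, adjusted p = 5.73e-05). All 3 knockdown libraries lay within 2 CPM of each other and below every control.

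NR2C2 (ENSG00000177463.15, chr3:14947583-15053600, plus strand), the testicular receptor TR4, showed the largest decrease of the 41 genes. It had 20.5, 16.1 and 17.0 CPM in siCtrl and 9.89, 10.7 and 11.7 CPM in siDDX17, 39.9% lower and without overlap (log2 fold change -0.74, SE 0.103, adjusted p = 5.90e-05). Its paralog NR2C1 did not pass (log2 fold change -0.12, SE 0.0822, adjusted p = 0.247). NR5A2, the liver receptor homolog LRH-1, had 13.8, 12.1 and 12.9 CPM in siCtrl and 10.3, 8.81 and 9.97 CPM in siDDX17 (log2 fold change -0.42, SE 0.0926, adjusted p = 0.00212), a call that limma on FPKM did not give (adjusted p = 0.0644). ESRRA, a regulator of mitochondrial genes, had 49.2, 52.0 and 50.3 CPM in siCtrl and 56.3, 63.0 and 58.9 CPM in siDDX17 (log2 fold change 0.23, SE 0.0604, adjusted p = 0.00568). The immediate early receptors NR4A1 and NR4A2 had log2 fold changes of -0.21 (adjusted p = 0.0536) and -0.31 (adjusted p = 0.186), and NR4A1 passed without siCtrl 1 (-0.24, adjusted p = 0.0272) and with RLE scaling (adjusted p = 0.0469).

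NR0B1 (ENSG00000169297.7, chrX:30304206-30309390, minus strand), or DAX1, lacks the DNA-binding domain and represses other receptors. It is known to be highly expressed in lung cancer lines with mutant KEAP1, of which A549 is one. Here it had 65.2, 69.3 and 66.4 CPM in siCtrl and 52.5, 54.6 and 50.1 CPM in siDDX17, 21.7% lower (log2 fold change -0.35, SE 0.0579, adjusted p = 2.24e-04). Its FPKM was the third highest of the 41 genes.

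Of the 7 NCOA genes, 1 (14.3%) was higher and 3 (42.9%) were lower, beside 24.5% and 24.3% of all genes. NCOA5 (ENSG00000124160.11, chr20:46060991-46089962, minus strand), a coregulator of oestrogen receptors, had 26.8, 29.2 and 30.7 CPM in siCtrl and 18.5, 17.6 and 19.5 CPM in siDDX17, 35.9% lower (log2 fold change -0.64, SE 0.0764, adjusted p = 1.44e-05). NCOA7, a protein of the oxidation resistance family, had 74.7, 52.2 and 48.4 CPM in siCtrl and 40.5, 42.0 and 45.2 CPM in siDDX17 (log2 fold change -0.46, SE 0.124, adjusted p = 0.00804). The groups did not overlap, but siCtrl 1 alone lay far above the rest. Without it the log2 fold change was -0.25 (adjusted p = 5.89e-04), and in DESeq2 with all libraries the adjusted p was 0.0502. With library size only it was 0.0643, and in limma on FPKM 0.155 and 0.146. NCOA6, a subunit of histone methyltransferase complexes, had 28.9, 26.8 and 29.2 CPM in siCtrl and 23.8, 23.4 and 22.4 CPM in siDDX17 (log2 fold change -0.29, SE 0.0684, adjusted p = 0.00342). The NCOA6 call was lost with library size only (-0.17, adjusted p = 0.0791) and in limma on FPKM (adjusted p = 0.176 and 0.173). The p160 coactivator NCOA3 was higher by a narrow margin, at 79.4, 70.9 and 72.4 CPM in siCtrl and 84.0, 80.2 and 83.1 CPM in siDDX17 (log2 fold change 0.15, SE 0.0594, adjusted p = 0.0498). It kept an adjusted p under 0.05 only without siCtrl 1 among the 6 fits that left out a library, and lay between 0.0686 and 0.212 in the other 5. The NCOA3 call was also lost with RLE scaling (0.0596), in DESeq2 (0.0793), in the edgeR exact test (0.0738) and without the low-count filter (0.0974). NCOA1 and NCOA2 had log2 fold changes of 0.03 (SE 0.0851) and 0.04 (SE 0.108) with overlapping groups. NCOA4, which also delivers ferritin to lysosomes, was at 0.14 with an adjusted p of 0.0568, and passed with upper quartile scaling (0.17, adjusted p = 0.027) and with library size only (0.26, adjusted p = 0.00116).

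Of the corepressors, NRIP1 was higher and NCOR1 did not pass. NCOR1, which holds histone deacetylases on receptors without ligand, had 64.7, 68.1 and 65.8 CPM in siCtrl and 63.7, 60.5 and 64.6 CPM in siDDX17 (log2 fold change -0.07, SE 0.0557, adjusted p = 0.299). NRIP1, a corepressor that binds receptors with ligand, had 30.5, 29.5 and 25.6 CPM in siCtrl and 37.8, 31.8 and 32.6 CPM in siDDX17 (log2 fold change 0.26, SE 0.0857, adjusted p = 0.0233). The NRIP1 call was lost without siCtrl 3 (adjusted p = 0.0956) and without siDDX17 1 (adjusted p = 0.139).

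Levels of different genes were compared as FPKM, averaged over the 3 siCtrl libraries. They ran from 0.04 to 39.3 with a median of 3.77, and 9 genes lay under 1 and 7 over 10. NR2F6 (39.3 ± 2.30, SD, n = 3) and NR1H2 (39.2 ± 0.647) led and did not differ beyond their spread. NR0B1 followed at 27.8 ± 0.278, then NCOA4 at 21.8 ± 0.611 and ESRRA at 18.9 ± 0.102. Each of these 3 lay below the one before by more than the SDs. The genes with the largest increases sat low in this order, with NR6A1 at 0.17 and THRB at 0.387 FPKM, whereas PPARG was eighth at 8.97 FPKM. FPKM of siDDX17 stand higher relative to siCtrl than CPM do, as for NR1H2 with 39.2 and 42.7 FPKM but 89.6 and 89.3 CPM, since TMM scaling enters only the CPM.

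Because close paralogs often bind the same elements, the share of each in the summed FPKM of its family was computed within each library, which removes the scaling between libraries. For 3 values against 3 the smallest p of an exact permutation test is 0.1, so these shares are given with their spread only. In the COUP-TF family NR2F1 went from 8.61% ± 0.27 (SD, n = 3) to 15.8% ± 0.312, NR2F2 from 8.03% ± 0.695 to 11.2% ± 0.597, and NR2F6 from 83.4% ± 0.709 to 73.0% ± 0.441. THRB went from 7.85% ± 0.758 to 12.3% ± 0.257 of the thyroid hormone receptors. Among the PPARs, PPARG went from 81.2% ± 0.412 to 85.7% ± 0.35 while PPARD went from 16.7% ± 0.75 to 12.3% ± 0.419, although the level of PPARD itself was higher in siDDX17. LXR alpha, NR1H3, went from 8.55% ± 0.465 to 11% ± 0.544 of the 2 LXR genes, and TR4, NR2C2, from 42.0% ± 3.41 to 32.3% ± 2.73 of the pair TR2 and TR4. None of these shares overlapped between the groups. RARG went from 23.1% ± 1.23 to 19.8% ± 0.696 without overlap, while the shares of RARA, RARB, RXRA, RXRB, PPARA, NR1D1 and NR1D2 overlapped.

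**Figure D3:**
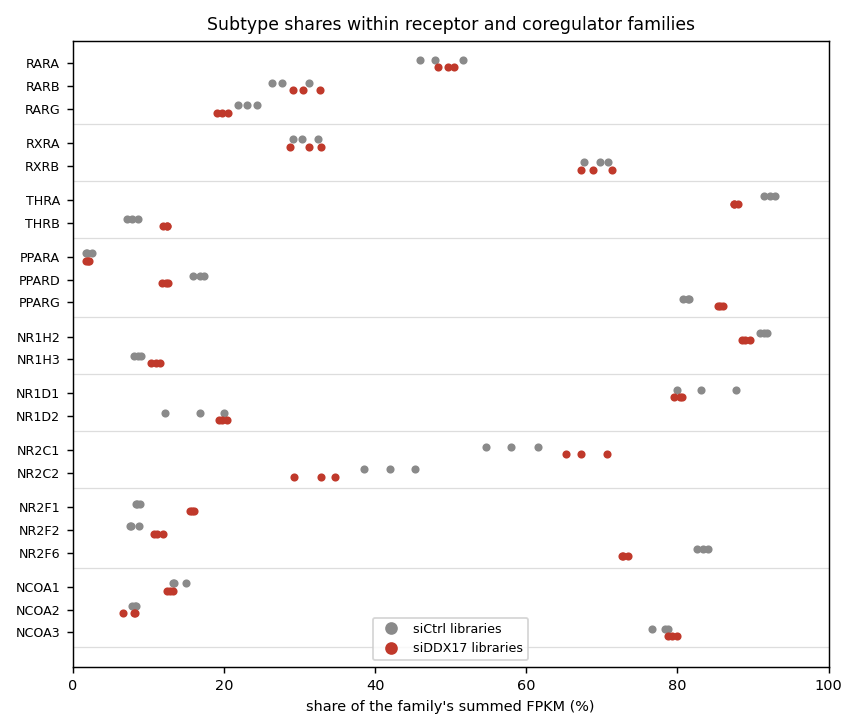
Share of each gene in the summed FPKM of its receptor or coregulator family (x axis, percent), with 1 point per library, grey for siCtrl and red for siDDX17. The clearest separations are NR2F6 (83.4% to 73.0%) and NR2F1 (8.61% to 15.8%), whereas the points of RXRA and RXRB are mixed.

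Several members share exons with a neighbour, and whether strand was used in counting is not given in the sources used here. In GENCODE 44, 20 of the 41 genes share exon bases with another annotated gene, 15 of them with a tested one. NR2C2 shares 7157 bases with MRPS25 on the opposite strand. MRPS25 was higher in siDDX17 (log2 fold change 0.21, adjusted p = 0.0126), opposite to NR2C2. NR1D1 and THRA share 473 bases at their 3' ends on opposite strands and moved in opposite directions, -0.31 and 0.26. NR2F1 shares 158 bases with NR2F1-AS1, which was also higher (log2 fold change 0.47, adjusted p = 0.00298). NCOA3 shares 247 bases with SULF2 on the opposite strand, which was also higher (log2 fold change 0.87, adjusted p = 5.03e-06). TRMT112 (-0.275) and ACP2 (-0.488), which share bases with ESRRA and NR1H3, were lower and so moved opposite to them. NCOA6 shares 96 bases of the same strand with PIGU, which was higher (log2 fold change 0.54, adjusted p = 2.34e-05). NR6A1, PPARG, NR3C1 and NCOA5 share no exon bases with another annotated gene.

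The read minimum left out 5 genes with matching symbols. NR5A1 had 1 read in all, NR0B2 6 and NR2E1 12. Just under the minimum, NR2E3 had 55 reads and NR4A3 had 49, which were 4, 2 and 6 in siCtrl and 15, 10 and 12 in siDDX17. Both lay over 1 in log2 fold change, NR2E3 at 1.09 (SE 0.596) and NR4A3 at 1.42 (SE 0.442). The reads of NR2E3 overlapped between the groups, at 3, 2 and 11 in siCtrl and 12, 5 and 22 in siDDX17. No test is given here for either gene. Just over it lay NR3C2 with 82 reads and RORA with 103.

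Receptors that the symbols do not cover were looked up in the same table. ESR1, the oestrogen receptor and the best known partner of DDX17, had 10 reads over the 6 libraries, and 7 of the 10 receptors present had 3 to 28 reads. HNF4A, a receptor of liver and gut epithelium, had 23.1, 27.7 and 28.3 CPM in siCtrl and 51.7, 56.1 and 54.7 CPM in siDDX17 (log2 fold change 1.04, SE 0.0781, adjusted p = 2.36e-07), and without siCtrl 1 it lay under the limit of 1. Each knockdown library lay above every control.

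Genes that work with the receptors were counted on lists of general knowledge, beside the 24.5% higher and 24.3% lower of all genes. Of 23 other coactivators, 2 were higher and 8 lower, with a median log2 fold change of -0.11 that became 0.0072 with library size only. With library size only the counts were 5 higher and 4 lower, and without siCtrl 1 they were 2 higher and 12 lower. The genes that fell included SRA1, the gene of the RNA coactivator that binds DDX17, with 75.2, 76.3 and 79.8 CPM in siCtrl and 50.8, 56.6 and 52.6 CPM in siDDX17 (log2 fold change -0.53, adjusted p = 8.60e-06). TRIP4 (-0.44) and PELP1 (-0.41) were also lower, while PPARGC1A, the PGC-1 alpha coactivator of PPARs and ESRRA, was higher (0.59, adjusted p = 0.0102). Of 20 corepressors and their complex partners, 7 were higher and 7 lower, which became 11 higher and 4 lower with library size only. The largest changes were increases of TBL1X (0.95), HDAC1 (0.90), LCOR (0.72) and HDAC4 (0.56). TBL1X is a core subunit of the complexes built on NCOR1.

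Of 11 chaperones of steroid receptors, 5 were higher and 2 lower, and with library size only 8 were higher and 1 lower. FKBP5, which lowers hormone binding of NR3C1 and is itself induced by it, had 38.2, 38.7 and 43.5 CPM in siCtrl and 82.8, 77.5 and 86.8 CPM in siDDX17 (log2 fold change 1.04, adjusted p = 6.77e-08). Without siCtrl 1 none of the 11 chaperones was called past a log2 fold change of 1, FKBP5 included. The co-chaperone FKBP4, which favours hormone binding, was lower (-0.54), and ST13 (0.70) and HSP90AA1 (0.68) were higher.

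Lists of receptor target genes held both increases and decreases. Of 18 glucocorticoid receptor targets tested, 5 were higher and 8 lower (median -0.26). CEBPD (1.51) and CRISPLD2 (1.12) rose, and PER1 (-1.10) and SLC19A2 (-1.09) fell. Decreases called past a log2 fold change of -1 numbered 3, against 1 without siCtrl 1. Of 17 PPAR targets 6 were higher and 3 lower (median 0.08), against 9 and 2 with library size only and 7 and 5 of 19 tested without siCtrl 1. They included SLC25A20 at 0.51, CREB3L3 at -1.02 and ANGPTL4 at -0.47. Of 11 LXR targets 3 were higher and 5 lower (median -0.27). Here the cholesterol exporter ABCA1 (-0.91) and the desaturase SCD (-0.75) fell, and APOE (0.65) and LPCAT3 (0.47) rose. The 16 genes of retinoic acid response and retinoid metabolism held 3 higher and 4 lower, with a median of -0.04 that became 0.08 with library size only, where 5 were higher and 4 lower. Without siCtrl 1, 4 were higher and 6 lower. CYP26B1 (-0.78), RDH10 (-0.66) and the retinol transporter STRA6 (-0.65) fell, and the largest increase that passed was that of DHRS3 (0.25).

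Of 19 clock genes 5 were higher and 3 lower (median 0.01), against 6 and 1 with library size only and 6 and 2 without siCtrl 1. HLF (1.86) and PER3 (0.75) rose and PER1 (-1.10) fell. Without siCtrl 1 no clock gene was called lower past a log2 fold change of -1, PER1 included. Of 5 vitamin D receptor targets THBD (1.03) and G0S2 (0.82) rose and CYP27B1 (-1.05) fell, and the others did not pass. CYP27B1 was low, with means of 1.93 CPM in siCtrl and 0.931 CPM in siDDX17. CYP24A1, the most abundant of the list at 438 and 372 CPM, overlapped between the groups (-0.23, adjusted p = 0.079). With library size only 3 of the list were higher and 1 lower. Only 2 FXR targets were tested, and of these SQSTM1 (-1.21) fell, a gene that other transcription factors also control, and without siCtrl 1 both were lower. FKBP5, PER1, ANGPTL4, NR1H3, NR1D1 and BHLHE40 stand on more than one list or are members themselves, so the lists are not independent.

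**Figure D4:**
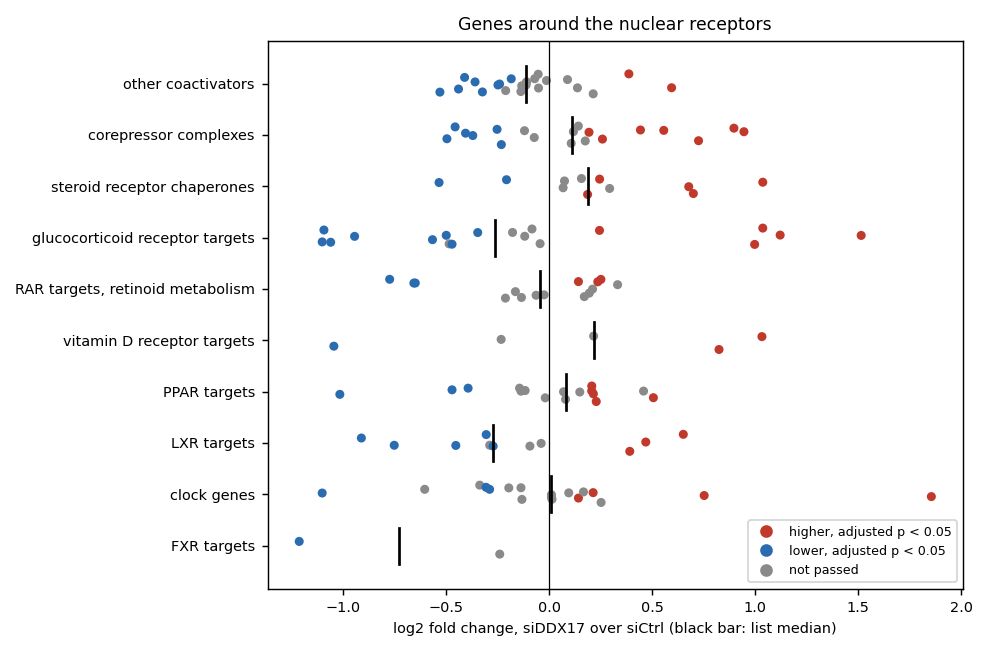
Log2 fold change of siDDX17 over siCtrl (x axis) for tested genes of 10 lists around the receptors (genes not reported here are not drawn), with red points for genes higher and blue points for genes lower at an adjusted p under 0.05, grey points for the rest, and a black bar for the median of each list over all its tested genes. Red and blue points lie on both sides of 0 in most target lists, and the medians of the other coactivators and of the RAR list, -0.11 and -0.04, turn positive with library size only.

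The promoters of the members were searched for the half-site that many of these receptors bind, AGGTCA, on both strands. RefSeq promoters (GRCh38.p14, from 250 bases before to 50 bases after the start) were matched for 34 of the 41 members. A half-site was present for 8 members (23.5%), beside 13.6% of 9923 tested protein-coding genes and 16.5% of all 27305 symbols, where a gene with several starts has more sequence to match. The windows around it are shown, 1 for each member that passed the test in either direction (PPARG holds further ones), with the half-site in capitals, read 5′ to 3′ on the strand of the gene.
PPARG, chr3:12287172-12287201: caggaaaagaaaAGGTCActgtctacccaa
NR1H3, chr11:47248148-47248177: tggtttgcctatAGGTCAgaagcatcccct
NR1H4, chr12:100503118-100503147: gagcatggcactTGACCTccaagtccagtt
NR0B1, chrX:30309516-30309545: ttcgaaccaccgAGGTCAtgggcgaacaca
NR5A2, chr1:200027614-200027643: atggtttacagcAGGTCActaatgttggaa
PPARG, NR1H3 and NR1H4 were higher and NR0B1 and NR5A2 lower in siDDX17, so members with these letters moved in both directions. The others with a half-site, RARA, RARB and NCOA4, did not pass.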

How the data were processed

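Reads of stranded polyadenylated RNA libraries were trimmed by the authors and mapped to GRCh38 with TopHat2, and the authors deposited raw counts of uniquely mapped reads per gene and FPKM per library. The counting program, its annotation and its use of strand are not given in the sources used here. Groups were taken from the sample titles. From the counts, edgeR 4.0.16 (R 4.3.3) was run with TMM scaling, filterByExpr (15615 of 29476 genes) and the quasi-likelihood test without covariates, with Benjamini-Hochberg adjustment over all genes tested. The fit was checked on simulated counts in which few genes changed, all by large steps. That check therefore does not cover the many small changes seen here. Alternatives used DESeq2 1.42.0, limma 3.58.1 on log2(FPKM + 1) and log2(FPKM + 0.1), other scalings and filters, the replicate number as a block, and each library left out. Members and gene lists were chosen with earlier results of these data known. Named were DDX17, members with an adjusted p under 0.05, the 6 members with the highest FPKM in siCtrl, members whose call changed without a library, and at most 4 passing genes of each list. Other members were given values after these were seen, to complete their families. CYP24A1, which did not pass, was also named after its value was seen. Positions are those of GENCODE 44. Some genes are not reported here. Protein sequences and splicing were not analysed here. p-values measure the spread between the 3 libraries of a group.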

Additional observations from a re-analysis of the deposited data

How the results depend on the processing

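Of the 25 members with an adjusted p under 0.05, 16 kept their direction and stayed under 0.05 in all 16 alternatives in which they could be fitted, and none changed direction. The calls lost were those of NCOA3, PPARD, NCOA7, NR5A2, NR1D1, NCOA6, NRIP1 and NR2F2, and 1 further member. The number of members upregulated at a log2 fold change over 1, 1 as reported, was 2 with upper quartile scaling, 3 with library size only, 0 with at least 10 counts in every library (where 24 of the 25 were tested), 0 in limma on log2(FPKM + 1), where the pseudocount shrinks low genes, 3 with glmTreat against a fold change of 1.5, and 6 at the limits of the methods. With each library left out it ranged from 1 to 3, namely 3 without siCtrl 2 and 2 without siCtrl 3 or without siDDX17 3. The number downregulated, 0 as reported, was 2 at the limits of the methods. Members lower at an adjusted p under 0.05, 9 as reported, numbered 5 with library size only and 4 in limma on log2(FPKM + 1) or on log2(FPKM + 0.1), where those higher rose to 20. NR1H2, at -0.0042 as reported, was at 0.026 with upper quartile scaling, 0.118 with library size only, 0.008 with at least 10 counts, 0.12 and 0.123 in limma with the larger and the smaller pseudocount, and between -0.064 and 0.026 with a library left out. NR1D2, at 0.0104, lay between -0.227 and 0.296 with a library left out. Replicate numbers are shared by the groups. Deviations from the group mean correlated at r = 0.00698, 0.0407 and -0.0564 in same-numbered libraries. In differently numbered ones r lay between -0.0624 and 0.0566. With 3 libraries a group, these values cannot show whether same-numbered cultures were handled together, which the titles do not state. With the replicate number as a block 15 members were higher and 9 lower, with PPARD lost (adjusted p = 0.05). At 82 and 103 reads in all, NR3C2 and RORA had SEs of 0.383 and 0.361, against 0.0557 for NCOR1 and 0.199 for NR6A1.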
